A study of Homo sapiens with 16 samples.

Results

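The regions described here carried monomethylated histone H3 lysine 4 (H3K4me1) in Toledo cells given the solvent DMSO, had no H3K4me1 peak after inhibition of the arginine methyltransferase CARM1, and overlapped no peak of acetylated lysine 27 (H3K27ac) in any library. They were chosen by merging the peaks of the 4 H3K4me1 libraries where they overlapped or touched, and by keeping the merged regions with a peak in both DMSO lists, in neither inhibitor list, and with no overlapping H3K27ac peak. This gave 3112 of 25624 merged H3K4me1 regions. H3K4me1 and H3K27ac therefore chose the regions, and both are given below as a description, with no test. H3K4me3, the trimethylated form of the same lysine, was not used in the choice.

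Toledo is an established cell line from a diffuse large B-cell lymphoma, and TP-064 is a small-molecule inhibitor of CARM1. The cells were grown in suspension for 6 days with 5 uM TP-064 or with DMSO, and chromatin was immunoprecipitated with antibodies to H3K27ac, H3K4me1 or H3K4me3. Each mark and treatment had 2 libraries, so the 12 ChIP libraries form 6 groups, and 4 input libraries complete the 16 samples. By its title, the study asks about acetyltransferase activity under CARM1 inhibition in lymphomas that carry CREBBP or EP300 mutations. All libraries came from this 1 cell line. The labels do not say whether paired libraries derive from separate cultures, so their spread may be technical. The library names place the DMSO libraries in lane 3 and the inhibitor libraries in lane 4. Treatment and lane cannot be told apart.

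H3K4me1 is written mainly by the KMT2C and KMT2D methyltransferases and marks enhancers and the flanks of promoters. A site with H3K4me1 but without H3K27ac is commonly called primed or poised, because the acetyltransferases CREBBP and EP300 place H3K27ac when an enhancer becomes active. CARM1 methylates arginine residues of histone H3 and of coactivators, CREBBP and EP300 among them. H3K4me3 marks promoters.

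In both DMSO lists, 8113 H3K4me1 regions had a peak, and 4847 of them overlapped no H3K27ac peak. Of those 4847, the 3112 selected regions (64.2%) had no peak in either inhibitor list, 1058 had a peak in 1 inhibitor list and 677 kept a peak in both. Among the 3266 regions that did overlap H3K27ac, 1305 (40.0%) had no peak in either inhibitor list. The selected regions thus made up 70.5% of all 4417 lost H3K4me1 regions. These shares follow from the choice and carry no test.

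The number of selected regions depended on the lengths of the H3K4me1 lists, with 25058 and 9673 peaks in the DMSO lists and 4094 and 4242 in the inhibitor lists. It was 15480 without DMSO library 2, and 294 when every list was shortened to its widest 4094 peaks. The lists hold positions only, so read depth is unknown and a missing peak can be a site below the peak caller's threshold.

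The selected regions had narrower H3K4me1 peaks than the other classes compared with them. Their median length was 2470 bp (range 984 to 9461), and in 95.1% of cases they were made of 1 peak from each DMSO list. The DMSO peaks in them had median widths of 2419 bp in library 1 and 1496 bp in library 2, which stood at median width percentiles of 67.9 and 35.3 among all H3K4me1 peaks of those libraries. Regions without H3K27ac that kept their H3K4me1 in all 4 lists had wider DMSO peaks, with medians of 3814 and 2743 bp (percentiles 87.2 and 76.5). Lost regions with H3K27ac lay between, with medians of 3031 and 1654 bp. In 93.2% of the selected regions the peak was wider in DMSO library 1.

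**Figure D1:**
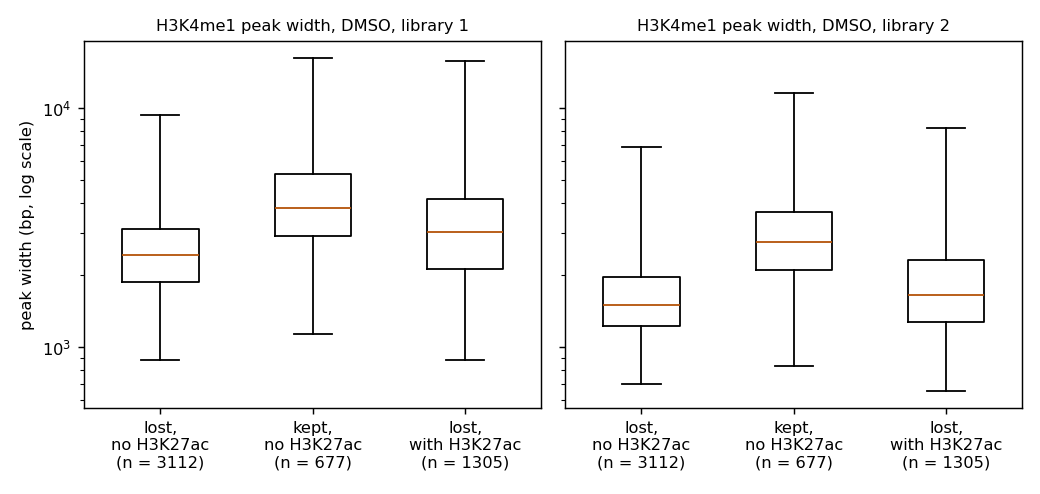
Width of the H3K4me1 peaks in each DMSO library, in bp on a log axis, for lost regions without H3K27ac, regions without H3K27ac kept in all 4 lists, and lost regions with H3K27ac. Boxes span the quartiles with the median as a line and whiskers reach the lowest and highest value. The lost regions without H3K27ac have the lowest median in both libraries, 2419 and 1496 bp.

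Their widest examples held broad H3K4me1 domains. The region of highest rank, by the lower of its 2 width percentiles, lay between genes, 19056 bp from FGFR3, a fibroblast growth factor receptor gene (chr4:1765822-1774236), with DMSO peaks of 8415 and 6863 bp. Next came a region over the start of PIEZO1, which encodes a mechanically gated ion channel (chr16:88779535-88786170; 6636 and 5683 bp), and one 22349 bp from ARFGAP3 (chr22:42768187-42774152; 5966 and 5248 bp). The fourth lay in the body of IRF8, a transcription factor of B cells and germinal centres (chr16:85907154-85912903; 5750 and 5075 bp). The others of the first 10 lay at LSM4, B4GALNT3, WWC3, RTN4R and TMEM131L and 39261 bp from KIAA0040, with peaks of 5286 to 8620 bp in library 1 and 4458 to 4926 bp in library 2. Of these 10 regions, those at FGFR3 and PIEZO1 carried any H3K4me3.

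The borders of the choice were passed by small distances. The selected region nearest to an H3K27ac peak lay in CYTH1, 7 bp away, followed by regions at PIK3R2 (8 bp) and EGLN1 (12 bp). Just outside, lost regions at VPS37B, ARID1B and LRP10 overlapped H3K27ac by 3, 6 and 8 bp. The selected regions nearest to an inhibitor H3K4me1 peak lay in KLHDC8A (143 bp), and near RGS8 (150 bp) and NFE2L3 (189 bp). Just outside on that side, regions at BIK, GRID1 and FGD3 had 735, 761 and 767 bp of H3K4me1 in 1 inhibitor library. Counting H3K27ac within 5 kb as overlap left 2649 regions.

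Most selected regions lay inside genes or between them. Of the 3112, 881 (28.3%, 95% Wilson interval 26.8 to 29.9) were within 2 kb of an end of a protein-coding gene, 1319 (42.4%) were elsewhere in a gene body, and 912 (29.3%) were between genes. Lost regions with H3K27ac lay at gene ends more often (39.5%, interval 36.9 to 42.2). A transcription start fell inside 347 of the 3017 selected regions on chromosomes covered by the start-site table (11.5%). That share was 15.5% for kept regions without H3K27ac and 10.9% for lost regions with H3K27ac. Intervals cover counting error only, since regions are not replicates.

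The selected regions were mostly single, and their distance to acetylation was similar to that of other regions without H3K27ac. The median distance to the nearest H3K27ac peak of any library was 30573 bp, and to the nearest H3K4me1 peak of an inhibitor library 33333 bp. The median distance to H3K27ac was 27904 bp for kept regions without H3K27ac. It was 32642 bp for regions without H3K27ac that had a peak in a single inhibitor list. Absence of overlap with H3K27ac was part of the choice in all these classes. A DMSO H3K4me3 peak lay within 5 kb of 31.9% of the selected regions. The median gap between neighbouring selected regions was 131303 bp, and 630 (20.2%) had another within 10 kb, in 281 chains. Of the 4847 regions without H3K27ac in both DMSO lists, the selected share ranged over the chromosomes from 47.7% (chromosome 21) to 85.5% (chromosome X).

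Promoter sequences show what kinds of start sites the regions covered. RefSeq promoter windows (GRCh38.p14) run from 250 bases before a transcription start to 50 after it, and 369 windows of 306 protein-coding genes lay wholly inside selected regions. Of these, 5 are shown, each as the 250 bases before the start, 5′ to 3′ on the gene's strand, with every CpG dinucleotide in capitals. PIEZO1 and ADM stand for starts whose H3K4me3 was also missing with the inhibitor, NBPF1 and SPHK1 for starts with H3K4me3 in all 4 lists, and ITGB7 for a start without H3K4me3. They were picked from the regions of highest rank after their values were seen. The ADM sequence also holds a start of SBF2, on the minus strand.
PIEZO1 (chr16:88785221-88785470, minus strand): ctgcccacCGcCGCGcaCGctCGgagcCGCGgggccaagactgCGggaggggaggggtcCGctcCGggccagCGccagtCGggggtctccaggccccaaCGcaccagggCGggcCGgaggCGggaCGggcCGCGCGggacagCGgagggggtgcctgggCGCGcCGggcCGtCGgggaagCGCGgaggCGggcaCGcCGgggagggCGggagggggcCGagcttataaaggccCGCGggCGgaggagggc
ADM (chr11:10304823-10305072, plus strand): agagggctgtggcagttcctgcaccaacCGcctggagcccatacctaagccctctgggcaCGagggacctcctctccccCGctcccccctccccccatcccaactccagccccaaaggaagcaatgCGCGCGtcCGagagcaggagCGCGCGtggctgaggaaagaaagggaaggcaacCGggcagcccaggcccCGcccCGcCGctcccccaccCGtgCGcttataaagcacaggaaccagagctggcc
NBPF1 (chr1:16613565-16613814, minus strand): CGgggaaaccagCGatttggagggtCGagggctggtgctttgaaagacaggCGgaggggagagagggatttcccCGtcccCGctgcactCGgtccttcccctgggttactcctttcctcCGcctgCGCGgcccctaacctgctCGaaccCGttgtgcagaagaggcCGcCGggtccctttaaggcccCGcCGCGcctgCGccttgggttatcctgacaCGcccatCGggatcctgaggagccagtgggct
SPHK1 (chr17:76382954-76383203, plus strand): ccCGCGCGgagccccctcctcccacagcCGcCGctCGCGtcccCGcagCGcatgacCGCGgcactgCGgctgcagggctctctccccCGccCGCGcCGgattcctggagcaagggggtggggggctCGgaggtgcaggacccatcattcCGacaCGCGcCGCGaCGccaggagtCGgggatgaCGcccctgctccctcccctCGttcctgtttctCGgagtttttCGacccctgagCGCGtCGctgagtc
ITGB7 (chr12:53207252-53207501, minus strand): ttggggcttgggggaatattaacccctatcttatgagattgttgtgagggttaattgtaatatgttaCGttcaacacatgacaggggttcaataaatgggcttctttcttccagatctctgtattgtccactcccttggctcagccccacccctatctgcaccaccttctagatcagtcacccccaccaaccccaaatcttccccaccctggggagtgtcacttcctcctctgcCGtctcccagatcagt
The PIEZO1 sequence holds 36 CpGs and the SPHK1 sequence 31, against 20 in NBPF1, 16 in ADM and 2 in ITGB7, which encodes the beta 7 integrin of lymphocytes.

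Over all such windows, CpG content differed by H3K4me3 state. The 97 windows in selected regions without H3K4me3 had a median of 10 CpGs, the 127 in regions with H3K4me3 in all 4 lists a median of 30, and the 83 in regions with H3K4me3 in both DMSO lists only a median of 30. All 22132 protein-coding windows in the table had a median of 21 CpGs and a median GC content of 62.3%, and those inside selected regions 27 and 69.3%. CpGs were thus more frequent at starts with H3K4me3 than at those without, with the same median whether H3K4me3 was kept or not.

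Motifs of B-cell factors were searched on both strands of these windows. The PU.1 and ETS-IRF motifs share the letters GGAA and can overlap. The EBF motif CCCNNGGG was present in 37.1% of the windows inside selected regions and in 21.7% of all windows. The figure was 43.0% inside kept regions without H3K27ac (128 windows) and 28.9% inside lost regions with H3K27ac (142 windows). This motif is itself rich in G and C, as the windows inside selected regions are, and the part of base composition was not tested. The E2A motif CAGCTG was at 20.9% against 18.0% of all windows, the PU.1 motif GAGGAAGT at 2.44% against 2.63%, the OCT motif ATTTGCAT at 2.17% against 1.65% and the AP-1 motif TGACTCA at 2.98% against 4.01%. The ETS-IRF composite GGAANNGAA was at 5.42% against 7.37%, the RUNX motif TGTGGTT at 2.17% against 3.70% and the NF-kB motif GGGACTTTC at 0.542% against 0.398%.

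H3K4me3 was then examined as the mark that had no part in the choice. At the 3112 selected regions, an H3K4me3 peak overlapped 20.9% (651 regions) and 17.8% (553) in the DMSO libraries and 13.3% (415) and 11.2% (350) in the inhibitor libraries. Both inhibitor libraries were below both DMSO libraries. The DMSO mean was 19.3% ± 2.23 (SD, n = 2) and the inhibitor mean 12.3% ± 1.48, so that the inhibitor mean minus the DMSO mean was -7.05 percentage points (two-sided exact permutation test, p = 0.33, the smallest that 6 assignments of 4 libraries allow). H3K4me3 lists of the whole genome were also shorter with the inhibitor (10317 and 10048 peaks, against 12476 and 11481). With the 4 lists shortened to their widest 10048 peaks, the difference was -2.92 percentage points.

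The length covered by H3K4me3 moved the same way. It was 970 and 743 kb of the selected regions with DMSO and 454 and 337 kb with the inhibitor, again without overlap between the treatments. The difference was -461 kb, a log2 ratio of -1.11 (two-sided exact permutation test, p = 0.33), and -302 kb in H3K4me3 lists of equal length. It followed the number of regions selected, with -1718 kb without H3K4me1 DMSO library 2 and -80.2 kb with H3K4me1 lists of equal length. The selected regions together span 8.37 Mb.

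Kept regions without H3K27ac showed H3K4me3 at similar levels. It overlapped 19.9% and 15.8% of the 677 kept regions in the DMSO libraries and 9.60% and 7.53% in the inhibitor libraries. The selected regions stood above the kept ones by 0.978 and 1.96 percentage points with DMSO and by 3.73 and 3.71 with the inhibitor, a change of 2.25 points (two-sided exact permutation test, p = 0.33). The drop in H3K4me3 was thus smaller in value at the regions that lost H3K4me1 than at those that kept it. That change was 0.189 without H3K4me1 inhibitor library 1 and 0.707 with H3K4me1 lists of equal length.

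Lost regions with H3K27ac carried more H3K4me3, at 44.8% and 41.8% in the DMSO libraries and 38.7% and 36.9% in the inhibitor libraries. The selected regions minus these gave -23.8 and -24.0 points with DMSO and -25.4 and -25.6 points with the inhibitor, a change of -1.57 (two-sided exact permutation test, p = 0.33). The gap between the region classes was present in every library, while its change with treatment was small and turned to 0.403 when H3K4me3 had to cover 10% of a region. It was -0.675 without H3K4me1 DMSO library 1, -0.779 when only DMSO H3K27ac lists were used, -0.204 with H3K4me3 lists of equal length and -3.87 with H3K4me1 lists of equal length.

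The share with H3K4me3 differed by position. At the 881 selected regions at gene ends it overlapped 56.3% and 50.3% with DMSO and 39.4% and 34.3% with the inhibitor. At the 1319 regions in gene bodies the values were 6.29% and 4.62% against 3.26% and 2.50%, and at the 912 regions between genes 7.89% and 5.37% against 2.74% and 1.64%. In each position both inhibitor libraries lay below both DMSO libraries (two-sided exact permutation test, p = 0.33 each). Of 855 gene-end regions on chromosomes covered by the start-site table, 489 (57.2%) lay within 2 kb of a transcription start. Among those, H3K4me3 overlapped 76.3% and 70.1% with DMSO and 55.8% and 49.7% with the inhibitor. At the other 366 gene ends the values were 28.4% and 22.4% against 15.3% and 11.7%.

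**Figure D2:**
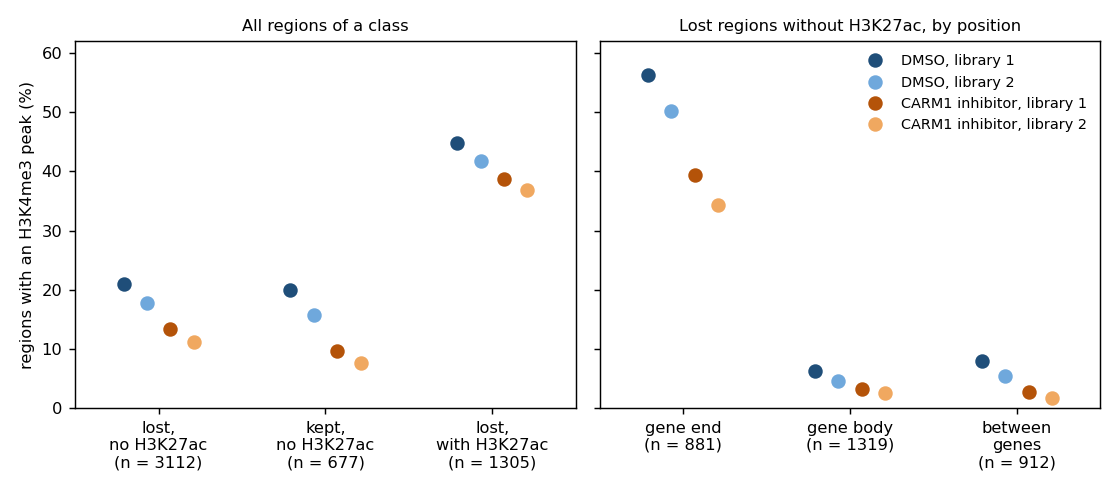
Share of regions that overlap an H3K4me3 peak (%), 1 point per library. On the left, lost regions without H3K27ac, kept regions without H3K27ac and lost regions with H3K27ac, and on the right the lost regions without H3K27ac by position. Both inhibitor points lie below both DMSO points in each of the 6 groups, and lost regions without H3K27ac range from 20.9 to 11.2%.

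At the selected regions of gene ends, H3K4me3 was most frequent near the centre in every library. At gene ends it covered the centre of at most 45.2% and 37.0% of regions with DMSO and 24.7% and 19.6% with the inhibitor, and 3.41 to 5.22% in the outermost bins on both sides, at 9900 bp. Away from gene ends the value just left of the centre (-100 bp) was 5.51% and 3.81% with DMSO and 2.06% and 1.48% with the inhibitor. At -1900 bp it was 1.12% and 0.807% against 0.493% and 0.403%, so every library had a local summit at the centre. These regions have no gene end within 2 kb by definition, and its part in the low values beside the centre was not tested. At -9900 bp the values were 3.54% and 2.96% with DMSO and 2.29% and 1.97% with the inhibitor. Both inhibitor values there were above those at the centre. In the inhibitor libraries the highest values within 10 kb, 2.73% and 2.47%, lay at -8700 bp, and in the DMSO libraries they lay at the centre.

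**Figure D3:**
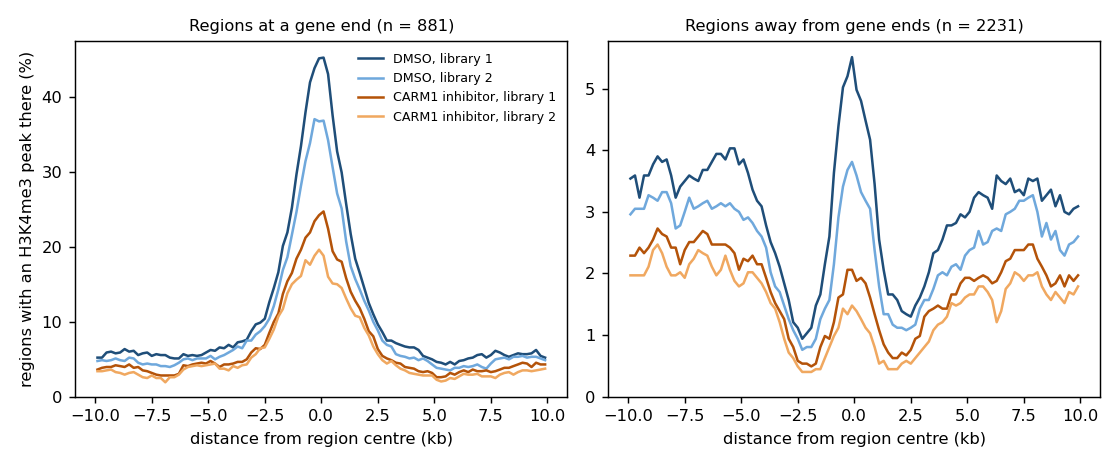
Share of lost regions without H3K27ac (%) with an H3K4me3 peak at each distance from the region's centre (kb), 1 line per library, in bins of 200 bp. The left panel shows the 881 regions at gene ends and the right panel the other 2231, on a smaller axis. Away from gene ends each library has a local summit at the centre, of 5.51 and 3.81% with DMSO and 2.06 and 1.48% with the inhibitor.

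Single regions fell into 3 main states. No list had H3K4me3 at 2459 selected regions (79.0%), all 4 lists had it at 347 (11.2%), and both DMSO lists but no inhibitor list had it at 136 (4.37%). A further 69 had it in both DMSO lists and 1 inhibitor list, and 101 had other patterns. Of the 347 regions with H3K4me3 in all 4 lists, 86.7% lay at gene ends, against 69.9% of the 136 and 15.6% of the regions without H3K4me3. So 653 regions (21.0%) carried H3K4me3 in at least 1 library, and 94 of those without it covered a transcription start. The term primed enhancer describes the choice by H3K4me1 and H3K27ac, while this share of the regions carried the promoter mark as well.

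Regions that kept H3K4me3 in all 4 lists included that over the start of NBPF1 (chr1:16611182-16616464), where H3K4me3 covered 3679 and 3111 bp in the DMSO libraries and 2064 and 1872 bp in the inhibitor libraries. SPHK1, which makes the lipid signal sphingosine 1-phosphate, had 2604 and 2581 bp against 1713 and 1594 bp (chr17:76382380-76386376). MRGBP, a subunit of the NuA4 acetyltransferase complex, had 2285 and 1922 bp against 1974 and 207 bp. ST3GAL1, a sialyltransferase gene, had 2662 and 2404 bp against 1670 and 1348 bp, and KIFC2 1961 and 1737 bp against 1727 and 1464 bp. At NBPF1, SPHK1, ST3GAL1 and KIFC2 the covered length was shorter in both inhibitor libraries, and at MRGBP the treatments overlapped.

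Regions that had H3K4me3 only with DMSO included the start of ADM, which encodes the vasoactive peptide adrenomedullin (chr11:10302832-10309267). Starts of SBF2, on the minus strand, lay in the same region. H3K4me3 covered 5843 and 5738 bp there with DMSO and was not called with the inhibitor, and H3K4me1 covered 6365 and 3172 bp with DMSO. PIEZO1 had 1603 and 1368 bp of H3K4me3 with DMSO and C2CD2 1836 and 1616 bp (chr21:41952822-41959809). ARHGEF40, whose region also held a start of NDRG2, had 2459 and 1557 bp. GCHFR, a regulator of GTP cyclohydrolase, had 1537 and 1090 bp. At CD22, an inhibitory coreceptor of the B-cell receptor, a region over the start had 1560 and 1557 bp of H3K4me3 with DMSO and none called with the inhibitor (chr19:35328363-35333174). At these starts H3K4me1 was called with DMSO only, and H3K27ac in no library, by the choice of regions. H3K4me3 was called with DMSO only because the regions are grouped here by that state.

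Regions without any H3K4me3 included distal ones. By rank, those over 50 kb from a gene end began with one 90456 bp from RANBP3L (chr5:36392359-36397584; DMSO H3K4me1 peaks of 5226 and 4325 bp). It was followed by 1 in the potassium channel gene KCNN3 (chr1:154805286-154810256; 4971 and 4169 bp) and 1 beside TNS3 (chr7:47668448-47672213; 3766 and 3611 bp). A region in DIP2C had 3820 and 3504 bp (chr10:512666-516569). The last of the 5 lay 366875 bp from ID2, an inhibitor of E proteins (chr2:8310128-8315180; 5053 and 3440 bp). In all, 568 selected regions (18.3%) lay over 50 kb from a gene end. The share was 12.7% for kept regions without H3K27ac and 22.1% for lost regions with H3K27ac.

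Counted as H3K4me3 regions, those touching a selected region lost their peaks more often than H3K4me3 regions in general. The 4 H3K4me3 lists merged into 656 regions that touched a selected region. Of these, 554 had a peak in both DMSO lists, and 136 of the 554 (24.5%) had none in either inhibitor list. The background was 1237 of all 11362 (10.9%), and 0 regions touching a selected region were gained. Regions touching kept sites without H3K27ac stood at 46 of 113 (40.7%) and those touching lost sites with H3K27ac at 48 of 546 (8.79%). These differences between sets of regions were not tested. The count of 136 became 237 without H3K4me3 DMSO library 2 (36.1%, against 18.3% of all) and 58 in H3K4me3 lists of equal length (13.7%, against 4.08% of all).

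Peak width moved with this loss. H3K4me3 regions were put into 4 bins of equal number by their width in DMSO library 2. In the narrowest bin, 49.0% of those touching a selected region were lost, against 36.6% of all. The values in the wider bins were 18.5% against 4.57%, 4.72% against 1.69%, and 3.70% against 0.634% in the widest. The share at selected regions was above that of all H3K4me3 regions in each of the 4 bins. At kept sites without H3K27ac it was higher still in each bin, at 61.0%, 43.8%, 19.0% and 15.8% from the narrowest to the widest. At lost sites with H3K27ac it was 52.5%, 12.9%, 5.15% and 0.356%. Counts of lost regions in the third and the widest bin were small, at 5 of 106 and 4 of 108 for selected regions. They were 4 of 21 and 3 of 19 for kept sites, and 7 of 136 and 1 of 281 for lost sites with H3K27ac. The order of the classes within bins was not tested. Among H3K4me3 regions with a peak in all 4 lists, 302 of the 357 touching a selected region had both inhibitor lengths below both DMSO lengths (84.6%, against 81.9% of all 9477), with a median log2 length ratio of -0.33 against -0.27. Shortening of H3K4me3 at selected regions was therefore near that of the genome.

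The genes near the selected regions were counted next. A selected region lay in 2560 of 19974 protein-coding genes or within 10 kb of them (12.8%), and 1949 of these had 1. Of the 4913 genes with H3K4me1 in both DMSO lists, which could have such a region, 52.1% did. That share depends on the choice, so the gene lists are read against it and not tested. Long genes have more room for peaks, and the median length of the marked genes is given beside each list. Over all 4913 marked genes it was 26.9 kb.

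RPTOR, which encodes the mTORC1 subunit raptor, had the most, with 14 selected regions along 422 kb (chr17:80544838-80966368). As the gene was picked for its selected regions, fewer inhibitor H3K4me1 peaks there follow from the choice. It held 29 and 21 H3K4me1 peaks in the DMSO libraries and 4 and 3 in the inhibitor libraries. The whole lists held 25058 and 9673 against 4094 and 4242. RPTOR also held 4 and 3 H3K27ac peaks against 2 and 1, and 2 and 2 H3K4me3 peaks against 1 and 1. One selected region lay over its start, where H3K4me3 covered 1838 and 1904 bp in the DMSO libraries and 1574 and 1438 bp in the inhibitor libraries, and the other 13 had no H3K4me3. Those 13 began 220 kb into the gene and ended just past its end. GSE1 had 11 (of 24 H3K4me1 regions in both DMSO lists), GNG7, a G protein gamma subunit gene, 8 of 12, and IQSEC1, AUTS2 and VAV2 7 each. CUX1, CBFA2T3, GAS7 and RBFOX3 had 6 each. These 10 genes are 102 to 1195 kb long.

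**Figure D4:**
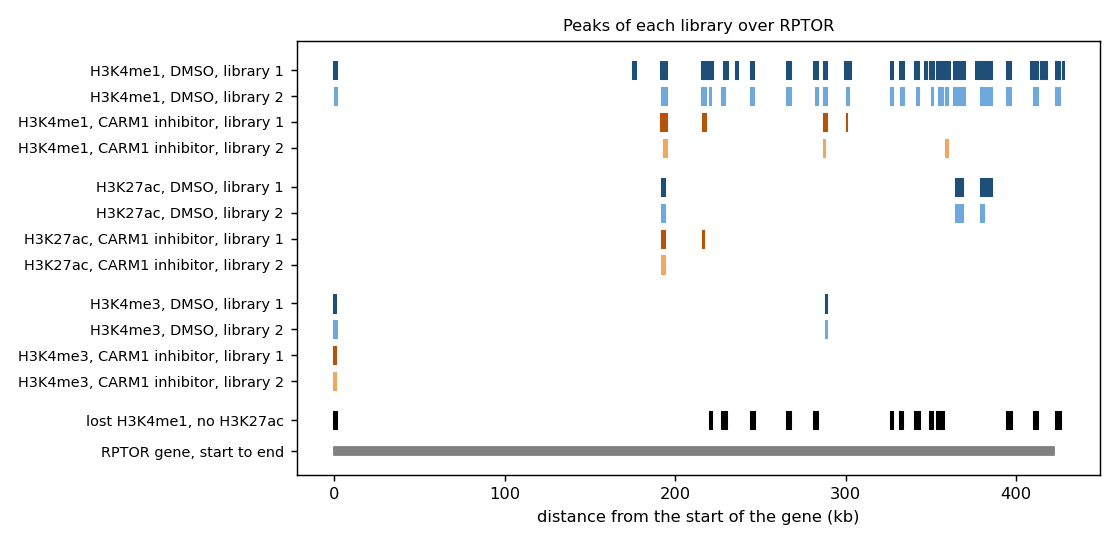
Peaks of each of the 12 ChIP libraries over RPTOR by distance from the start of the gene (kb), with the 14 lost H3K4me1 regions without H3K27ac in black and the gene in grey. H3K4me1 peaks number 29 and 21 in the DMSO rows and 4 and 3 in the inhibitor rows, and 13 of the 14 lost regions lie beyond 200 kb. The gene was picked as that with the most lost regions.

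The longest chain of neighbouring selected regions, 5 that each lay within 10 kb of the next, lay at CDKN1A, which encodes the cell cycle inhibitor p21 (chr6:36649406-36684597), a locus named here after its values were seen. Its farthest region ended 23862 bp from the gene, and its last lay inside the gene and covered a RefSeq transcription start. Its DMSO H3K4me1 peaks were 3139, 2219, 3138, 3595 and 6799 bp wide in library 1 and 3081, 1034, 1597, 2690 and 2906 bp in library 2. The region inside the gene also carried H3K4me3 over 2949 and 2632 bp with DMSO and none called with the inhibitor. The nearest H3K27ac peaks of any library were 54155 to 70482 bp away. At CDKN1A, the 5 neighbouring H3K4me1 sites were called with DMSO only by the choice of regions. The H3K4me3 peak, not used in that choice, was also called with DMSO only.

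H3K4me1 in both DMSO lists was present at 21 of 24 transcription factors of B-cell identity (87.5%) and 31 of 39 genes of B-cell surface and receptor signalling (79.5%). It was present at 9 of 29 T and NK cell markers (31.0%), 5 of 24 epithelial and stromal markers (20.8%) and 1 of 23 myeloid markers (4.35%), against 4913 of all 19974 genes (24.6%). Lists not defined by a lineage were also above all genes. Adhesion and trafficking stood at 69.2%, H3K4 methylation enzymes at 47.6% and acetyltransferases and CARM1 partners at 39.1%. Cell cycle genes stood at 33.3% and ribosomal protein genes at 27.4%. Plasma cell and germinal centre genes stood at 63.3% and 59.3%. The median gene length was 109 and 39.1 kb in the B-cell lists and 23.8, 37.2 and 13.5 kb in the lists of other lineages, and the part of length was not tested.

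Transcription factors of B-cell identity had selected regions at 13 of the 21 marked genes (61.9%; marked genes 111 kb long in the median). IRF8 had 2 selected regions among 3 H3K4me1 regions in both DMSO lists. FOXO1, a factor that directs the germinal centre dark zone, had 3 of 4, with a leading region of 2990 and 2826 bp. IKZF3, the lymphoid factor Aiolos, had 1 of 5, EBF1, a factor that specifies the B lineage, 2 of 4, and BCL11A 2 of 4. At EBF1 the leading region lay 3168 bp from the gene, with peaks of 4171 and 2684 bp. An H3K4me1 region kept in all 4 lists was present at 12 of the 21 genes (57.1%, against 33.0% of all marked genes), and IRF8, FOXO1 and EBF1 had none.

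B-cell surface and receptor signalling genes had selected regions at 17 of 31 (54.8%; 36.9 kb). VAV2, a signalling protein downstream of the B-cell receptor, had 7 of 11 regions, and its leading region had peaks of 4223 and 3891 bp. PLCG2, the phospholipase downstream of the receptor, had 4 of 10, and no region of this gene was kept in all 4 lists. CD22 had 2 of 3. CD79B, a signalling chain of the receptor, had 2 of 4 with the other 2 kept, and FCER2, the low-affinity IgE receptor CD23, 2 of 3. The share of this list was near that of all marked genes.

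Germinal centre genes had the highest share of the lists with at least 10 marked genes, 12 of 16 (75.0%; 40.9 kb). ITPKB, a kinase that limits receptor signalling, had 1 selected region among 8, with 5 kept, and the selected one was wide (5545 and 4226 bp). RGS13, a regulator of chemokine receptor signalling, had its single region among those selected (3898 and 3609 bp). IRAG2, formerly LRMP, had 1 of 5, and KLHL6 2 of 4. S1PR2 and GNA13, a receptor and its G protein that confine B cells to the germinal centre, had 3 of 3 and 2 of 2. They fall outside the rule for named genes and were named after their values were seen. The leading region of S1PR2 lay 9132 bp from the gene. That of GNA13 lay 26 bp from an H3K27ac peak and carried H3K4me3 in all 4 lists. The share of the list was 71.4 to 82.4% with windows of 0, 5 or 25 kb around genes, against 48.2 to 57.6% of all marked genes.

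Genes of plasma cells and of exit from the germinal centre had selected regions at 8 of 19 (42.1%; 11.7 kb). CCR7, ARID3A, CD27 and RELB led, with 1, 2, 1 and 3 selected regions, and XBP1, the secretory transcription factor, had its single H3K4me1 region among those selected (3493 and 1432 bp). Genes of adhesion and trafficking stood at 7 of 18 (38.9%; 38.0 kb). The integrin genes ITGB7 and ITGB2 had 1 of 2 and 4 of 8, ITGAL 1 of 2 and ELMO1 1 of 3. ICAM1, a ligand of lymphocyte integrins, had 2 of 2. Both lists were below the 52.1% of all marked genes. With a window of 25 kb they stood at 57.1% and 52.6%, against 57.6% of all marked genes, so the plasma cell list was then near that share.

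Cell cycle genes had the lowest share, 3 of 14 (21.4%; 22.8 kb), at RBL1, CDK6 and CCND3. RBL1, a relative of the retinoblastoma protein, had 1 of 2 regions (3416 and 1792 bp), the G1 kinase CDK6 1 of 2 and its partner cyclin D3 1 of 4. Of the 14 genes, 9 (64.3%) had an H3K4me1 region kept in all 4 lists. With a window of 25 kb the list stood at 11 of 18 (61.1%), so its low share depended on the window. Ribosomal protein genes, a control list of short genes, stood at 5 of 17 (29.4%; 4.41 kb), at RPL27, RPL4, RPS15, RPLP0 and RPS2. The regions of RPS15, RPLP0 and RPS2 lay outside these genes, at 9051, 4021 and 7468 bp. With gene bodies alone the ribosomal list stood at 2 of 10 (20.0%), below the cell cycle list at 3 of 10 (30.0%).

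Among the enzymes of the mark itself, 4 of 10 marked genes had selected regions (40.0%; 38.8 kb). They were WDR5 and ASH2L, core subunits of the H3K4 methyltransferase complexes, with 2 of 2 and 1 of 1, SETD1B, a methyltransferase, with 3 of 5, and SMYD3 with 2 of 3. Acetyltransferases and partners of CARM1 stood at 4 of 9 (44.4%; 51.5 kb). Among these, the acetyltransferase genes KAT6B and CREBBP had 1 of 1 and 2 of 4, and CARM1 itself had 1 of 1. The CARM1 region lay outside the gene, 460 bp from it (chr19:10867804-10871092), and covered an end of another protein-coding gene. Its H3K4me1 peaks were 2959 and 1170 bp wide, and it was 425 bp from an H3K27ac peak. With gene bodies alone the list stood at 3 of 7. H3K4me3 covered 948 bp of it in DMSO library 1 and was not called in the other 3 lists. The markers of other lineages had few marked genes, with 4 of 9 for T and NK cells (CD3E, GNLY, LCK and TCF7), 1 of 1 for myeloid cells (LYZ) and 2 of 5 for epithelial and stromal cells (COL1A1 and CDH1).

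**Figure D5:**
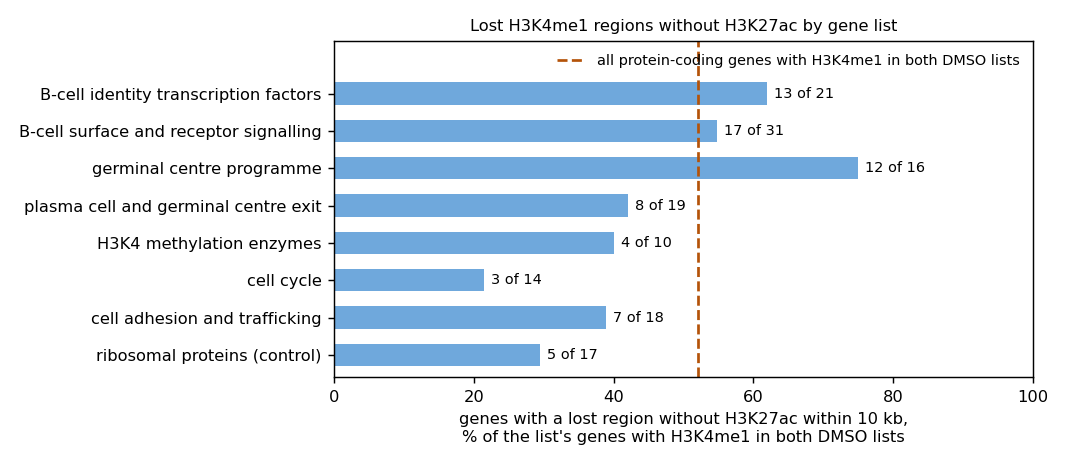
Share of the genes with H3K4me1 in both DMSO lists that had a lost region without H3K27ac in the gene or within 10 kb (%), for the 8 lists with at least 10 such genes, with the counts beside the bars. The dashed line is the 52.1% of all such genes. Germinal centre genes reach 75.0% and cell cycle genes 21.4%.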

How the data were processed

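The submitters' processing notes name Bowtie 1.1.2, MACS 1.4.2 and hg38, and the role of each, the peak threshold and any read filter are not given in the sources used. For each ChIP library the authors deposited a list of peak positions with no score, so presence and width in bp were compared. The input libraries were not used here.

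Scripts in Python 3.11.15 with numpy 2.4.6, scipy 1.17.1 and matplotlib 3.10.9 merged peaks that overlapped or touched. They used RefSeq gene ends of 19974 protein-coding genes and RefSeq promoters and microRNAs (GRCh38.p14), and promoter starts on some chromosomes were not used here. Selected regions, kept regions without H3K27ac and lost regions with H3K27ac were recovered in full from simulated lists with planted regions. The planted H3K4me1 peaks spanned most of each region in both libraries, so this checked the code and not the choice of regions.

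The 2 libraries of a group were the replicates in two-sided exact permutation tests of H3K4me3. Named regions were the 10 of highest rank, 5 per H3K4me3 state, 5 distal ones and 3 on each side of each border of the choice. Named genes were the 10 with most regions and up to 5 per list by rank. A few genes that this rule picks are not reported here. The regions, the 12 gene lists and the 8 motifs were chosen with earlier results of these data known. Alternatives covered merging distance, overlap, list length, peak width, gene windows, the replicate block and each library left out.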

Additional observations from a re-analysis of the deposited data

How the results depend on the processing

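The number of lost H3K4me1 regions without H3K27ac was 294 in H3K4me1 lists of equal length, and it ranged from 3124 to 15480 when 1 H3K4me1 or H3K27ac library was left out, the highest without H3K4me1 DMSO library 2. The difference in the share with H3K4me3 was below 0 under every alternative run, and the change in its gap to lost regions with H3K27ac turned to 0.403 when H3K4me3 had to cover 10% of a region. The share at gene ends was 23.6% with a window of 1 kb and 39.1% with 5 kb. H3K4me3 regions at the selected sites without an inhibitor peak numbered 58 in lists of equal length, and 139 to 237 when 1 H3K4me3 library was left out, alternatives chosen after seeing the data. With the replicate number as a block, the difference in H3K4me3 was again -7.05 percentage points (exact sign-flip permutation test, p = 0.5, the smallest possible), and the block changed no other value. No label says that same-numbered libraries pair, so the numbers were not taken as pairs. Deviations of same-numbered libraries had a correlation of 0.04 over 9477 H3K4me3 regions. A correlation over regions leaves out any shift that all regions share, so it cannot decide whether the libraries pair. The H3K4me3 list of library 1 was the longer in both treatments (12476 and 11481 peaks with DMSO, 10317 and 10048 with the inhibitor). In these cases the cause was not tested, except that shorter lists hold fewer peaks by construction. Without reads or scores, a weakened peak and a lost one cannot be told apart.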

Other observations

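MicroRNA genes lay in a few of the lost H3K4me1 regions without H3K27ac. Of the 1558 hairpins in the RefSeq table (GRCh38.p14, chromosome Y left out), 18 overlapped 16 of these regions. The cluster MIR23A, MIR27A and MIR24-2 lay whole inside 1 region between genes (chr19:13835290-13837856), with DMSO H3K4me1 peaks of 2567 and 1746 bp, no H3K4me3 in it and a DMSO H3K4me3 peak 1078 bp away. MIR26B lay in another (chr2:218402475-218407790; 5316 and 2154 bp), 1734 bp from an H3K27ac peak and without H3K4me3. The mature sequences of these genes are shown 5′ to 3′ with the seed, bases 2 to 8, in capitals.
hsa-miR-23a-3p: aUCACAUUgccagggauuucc
hsa-miR-27a-3p: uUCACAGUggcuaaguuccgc
hsa-miR-24-3p: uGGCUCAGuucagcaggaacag
hsa-miR-26b-5p: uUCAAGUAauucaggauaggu
None of the 4 seeds is shared. Levels of these microRNAs were not measured, and the 2 regions say only that H3K4me1 at these hairpins was called with DMSO and not with the inhibitor. Of the 18 hairpins, MIR345, MIR762, MIR1199, MIR1470, MIR4322, MIR4658 and MIR5090 lay in regions with H3K4me3 in all 4 lists. At MIR345, H3K4me3 covered 2708 and 2685 bp in the DMSO libraries and 2623 and 2222 bp in the inhibitor libraries.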
